A study of Homo sapiens with 9 samples.

Results

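The second 3 days of exposure to the EZH2 inhibitor EPZ-6438 were examined in TYUC-1 cells by comparing the 3 RNA libraries of day 6 with the 3 of day 3. The comparison took every gene with at least 10 estimated counts in at least 3 of these 6 libraries, which kept 15204 of the 35762 gene symbols in the table. TYUC-1 is described in the labels as a neuroendocrine carcinoma line of the esophagus that grows in suspension, and the medium was DMEM/F12 with serum. All libraries of the series, those of day 0 included, carry EPZ-6438 as their treatment, and each day has 3 biological replicates of this single line. The treatment protocol names EPZ-6438 at 2 uM or DMSO, without saying which the day 0 cells received. No vehicle-treated library of day 3 or day 6 was analysed here, so the inhibitor and the extra 3 days in culture cannot be told apart. The labels do not say whether replicates were separate cultures, so p-values measure the spread between these libraries.

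The histone methyltransferase EZH2 acts within PRC2, a Polycomb complex whose mark on histone H3 helps to keep developmental genes silent. EPZ-6438, also known as tazemetostat, blocks the enzymatic activity of EZH2, and the mark is then lost gradually as cells divide and histones are replaced. The series title sets squamous epithelium, whose regulator is p63 (gene TP63), against the neuroendocrine state. Tuft cells, which are chemosensory cells of epithelia, form a further identity found in some neuroendocrine carcinomas and depend on the transcription factor POU2F3.

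The main pattern of the second 3 days was a rise of squamous, matrix, neuronal and growth factor response genes from low levels, with smaller falls of tuft cell and DNA replication genes. At an adjusted p under 0.05 (edgeR quasi-likelihood test, Benjamini-Hochberg adjustment over all genes tested), 2531 genes were called, 16.6% of those tested. Of these, 1791 rose (11.8%) and 740 fell (4.87%), and 985 of the rises (6.48%) but 71 of the falls (0.467%) were at least 2-fold. The 3 libraries of day 6 lay all above those of day 3 for 3495 genes (23%) and all below for 3164 (20.8%), and 2525 of the 2531 called genes were among these. Rises were more frequent at low levels. Among genes with a mean over all 9 libraries under 1 CPM (the count relative to the TMM-scaled library size), 23.9% rose and 1.12% fell, while at 100 CPM or more 1.67% rose and 7.98% fell. The median log2 fold change of all genes was -0.00141. Of 985 genes with a day 3 mean under 0.5 CPM, 405 rose and 3 fell. A gene that was nearly silent on day 3 was tested only if day 6 counted it, which favours rises: 274 tested genes had fewer than 10 counts in every day 3 library, and 236 of them rose.

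**Figure D1:**
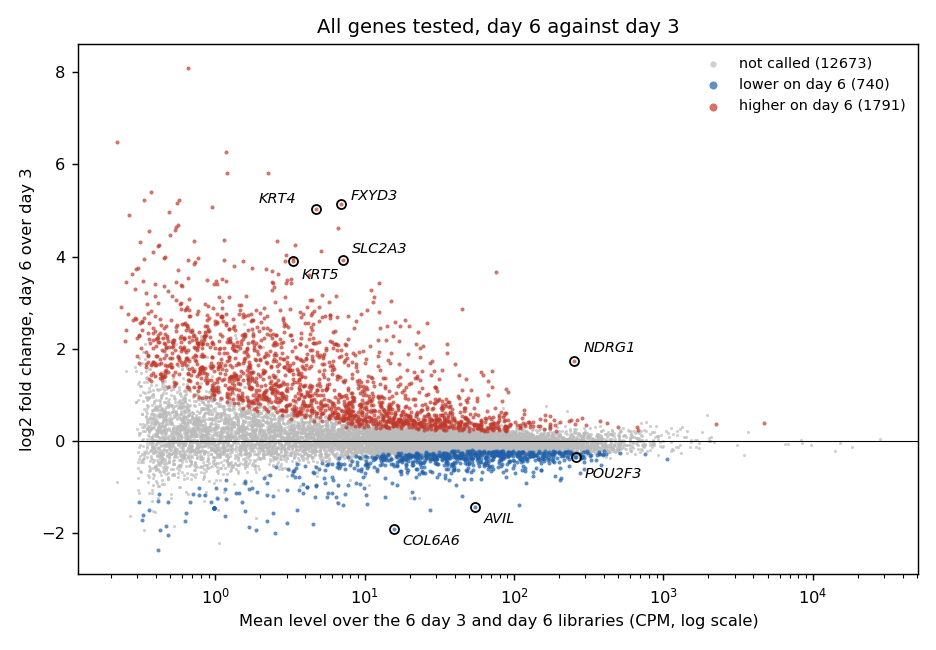
Log2 fold change of day 6 over day 3 (vertical axis) against the mean level over the 6 libraries in CPM (horizontal axis, log scale) for the 15204 genes tested, with the 1791 genes called higher in red, the 740 called lower in blue and the rest in grey. The called rises reach further from 0 than the called falls and lie mostly at low levels.

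The libraries of days 3 and 6 held between 21844560 and 29589297 estimated counts, so that 3 counts, the limit that a count of 0 allows, were 0.1003 to 0.1304 CPM. These limits cover counting error only. Log2 levels correlated at 0.996 to 0.997 between libraries of day 3 and at 0.991 to 0.994 between those of day 6. One day 0 library (replicate 2, D0_2) correlated at 0.978 with the other day 0 libraries, which correlated at 0.997 with each other. It enters this comparison through the shared estimate of the spread and through the TMM scaling, which was computed over all 9 libraries together. A fit of the 6 libraries of days 3 and 6 alone called 2513 rises (16.5%) and 1829 falls (12%), among them all 2531 genes called above, and a fit without that day 0 library called 2543 rises and 2048 falls. The share of rises among called genes was 70.8%, against 57.9% with the 6 libraries alone, 55.4% without that day 0 library and 78.1% when libraries were scaled by their totals only, which moved the median of all genes to 0.0341. Without D6_3 (replicate 3 of day 6) the count of rises was 1122 and without D6_2 it was 1177, while the count of falls was 347 to 428 with any 1 library of days 3 and 6 left out.

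Markers of the labelled identity were mixed. The neuroendocrine gene INSM1 and the tuft cell gene POU2F3 were counted in every library, while CHGA, which encodes chromogranin A, had no count in any of the 9 libraries. Of 29 leukocyte markers 14 were tested, and their summed level was 1177 to 1204 CPM in the day 3 libraries and 1062 to 1075 CPM in those of day 6. Most of it was the lysozyme gene LYZ (348, 340.3 and 357 CPM on day 3 and 325, 324 and 320.4 CPM on day 6) and the actin-bundling gene LCP1. PTPRC, which encodes the leukocyte antigen CD45, was at 0.559, 0.267 and 0.304 CPM on day 3 and 0.471, 0.388 and 0.474 CPM on day 6, and CD3D, MS4A1, NKG7, CD2 and CD48 had no count. The 5 tested fibroblast markers summed to 79 to 85.7 CPM on day 3 and 96.1 to 101.4 CPM on day 6, with THY1 at 0, and the 5 tested endothelial markers to 29 to 30.4 and 35.4 to 41.8 CPM, with CLDN5 at 0. The part of these markers in the results below was not tested.

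Squamous genes rose more often than all genes, of which 11.8% rose. Of 24 tested genes of a basal squamous list 14 rose (58.3%), 1 fell and 9 were not called (median log2 fold change 0.59, against -0.00141 over all genes). Of 35 genes of a squamous differentiation list 16 rose (45.7%, median 0.41) and 19 were not called. The summed level of the basal list went from 914 to 926 CPM on day 3 to 1011 to 1088 CPM on day 6. That of the differentiation list did not rise, at 2506 to 2559 CPM on day 3 and 2444 to 2546 CPM on day 6. In bulk RNA a change in the number of cells of a type and a change in RNA per cell cannot be told apart. The basal keratin gene KRT5 (chromosome 12, 52514575 to 52520687, minus strand, GRCh38) was at 0.373, 0.267 and 0.608 CPM on day 3 and 5.24, 6.29 and 6.93 CPM on day 6. All day 6 libraries lay far above all day 3 libraries (log2 change 3.91, SE 0.25, adjusted p = 1.24e-06), and pooled counts were 15.1-fold higher (95% interval 10.6 to 22.4). KRT4 (chromosome 12, 52806549 to 52814551, minus strand), a keratin gene of the upper layers of the esophageal mucosa, was at 0.298, 0.301 and 0.217 CPM on day 3 and 10.1, 7.54 and 10.0 CPM on day 6 (log2 change 5.04, SE 0.29, adjusted p = 5.2e-07; 33.7-fold in pooled counts, 22.1 to 54.2). FXYD3, which encodes a regulator of the sodium pump, is in neither squamous list. It was at 0.373, 0.334 and 0.435 CPM on day 3 and 12.6, 13.2 and 14.9 CPM on day 6, the largest log2 fold change among rises of genes averaging 5 CPM or more (log2 change 5.15, SE 0.17, adjusted p = 1.52e-08). In none of these 3 genes did day 3 and day 6 overlap. Both keratin genes had been higher on day 0, KRT5 at 1.08, 0.937 and 1.13 CPM and KRT4 at 0.686, 0.937 and 0.33 CPM. From day 0 to day 3 they changed by log2 -1.36 (edgeR adjusted p = 0.0035) and -1.25 (0.0224). From day 0 to day 6 the changes were 2.54 and 3.80, smaller than those from day 3.

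Genes of the cornified layer were among the rises. SPRR1B, a precursor of the cornified envelope, was at 0.596, 0.602 and 0.739 CPM on day 3 and 8.74, 6.59 and 7.96 CPM on day 6 (log2 change 3.59, SE 0.23, adjusted p = 9.46e-07). S100A9, a subunit of calprotectin, was at 0.0373, 0.167 and 0 CPM on day 3 and 5.78, 3.36 and 4.13 CPM on day 6 (log2 change 5.81, SE 0.48, adjusted p = 6.91e-06), with D3_3 at 0 and D6_1 highest. EMP1, an epithelial membrane protein gene, was at 0.783, 0.903 and 1.22 CPM on day 3 and 7.19, 6.93 and 7.66 CPM on day 6 (log2 change 2.92, SE 0.20, adjusted p = 1.94e-06). Each of these genes stood apart between the days. Of all genes tested 2 had no count on day 3, and both belong to this list. KRT1, a keratin gene of the suprabasal epidermis, reached 0.403, 0.431 and 0.474 CPM on day 6, at least 11.5-fold higher than a floor of 3 counts over the day 3 libraries. CRNN, which encodes cornulin of the esophageal surface layers and was chosen after its values were seen, reached 1.58, 1.25 and 1.12 CPM, at least 35.6-fold higher. GRHL3, a transcription factor gene of epidermal differentiation (log2 change 3.98, SE 0.61, adjusted p = 0.000748), was a further rise chosen after its values were seen. So were the desmosomal cadherin gene DSC2 (log2 change 2.85, SE 0.38, adjusted p = 0.000241) and the protease gene KLK7 (log2 change 2.50, SE 0.29, adjusted p = 0.000104). Since 8 of the 35 tested members passed the filter only through day 6, 7 of which rose, the count of this list leans on them. Without a day 6 library, where such genes were no longer tested, 7 (D6_3) or 8 (D6_1 and D6_2) members rose, while the basal list had 13 or 14 rises with any 1 library of days 3 and 6 left out. SPRR genes resemble each other, so their estimated counts are uncertain.

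Genes of the basal layer and its receptors moved as well. EGFR, the receptor of epidermal growth factor, was at 0.41, 0.535 and 0.348 CPM on day 3 and 3.06, 5.26 and 5.17 CPM on day 6 (log2 change 3.34, SE 0.32, adjusted p = 1.97e-05). The P-cadherin gene CDH3 was at 24.6, 22.4 and 23.2 CPM on day 3 and 40.4, 40.5 and 46 CPM on day 6 (log2 change 0.85, SE 0.09, adjusted p = 2.9e-05). The atypical cadherin gene FAT1 was at 6.82, 6.12 and 5.65 CPM on day 3 and 17.3, 15.9 and 15 CPM on day 6 (log2 change 1.37, SE 0.14, adjusted p = 2.71e-05). SOX2, a transcription factor of the esophageal epithelium and of neural progenitors, was at 0.447, 0.802 and 0.739 CPM on day 3 and 2.92, 2.46 and 2.32 CPM on day 6 (log2 change 1.95, SE 0.25, adjusted p = 0.000208). All libraries of day 6 exceeded those of day 3 in these 4 genes. TP63 itself (chromosome 3, 189631416 to 189897279, plus strand) was at 0.857, 0.234 and 1 CPM on day 3 and 0.471, 0.517 and 0.56 CPM on day 6. Its day 6 libraries lay between the day 3 libraries, D3_2 being the lowest of the 6, and the test made no call (log2 change -0.40, SE 0.45, adjusted p = 0.617; pooled ratio 0.77, 95% interval 0.496 to 1.19). At 53 pooled counts on day 3 and 39 on day 6 the depth limits what can be seen of this gene. The only member that fell was PITX1, a homeobox gene (log2 change -0.46, SE 0.10, adjusted p = 0.00573), chosen after its values were seen.

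**Figure D2:**
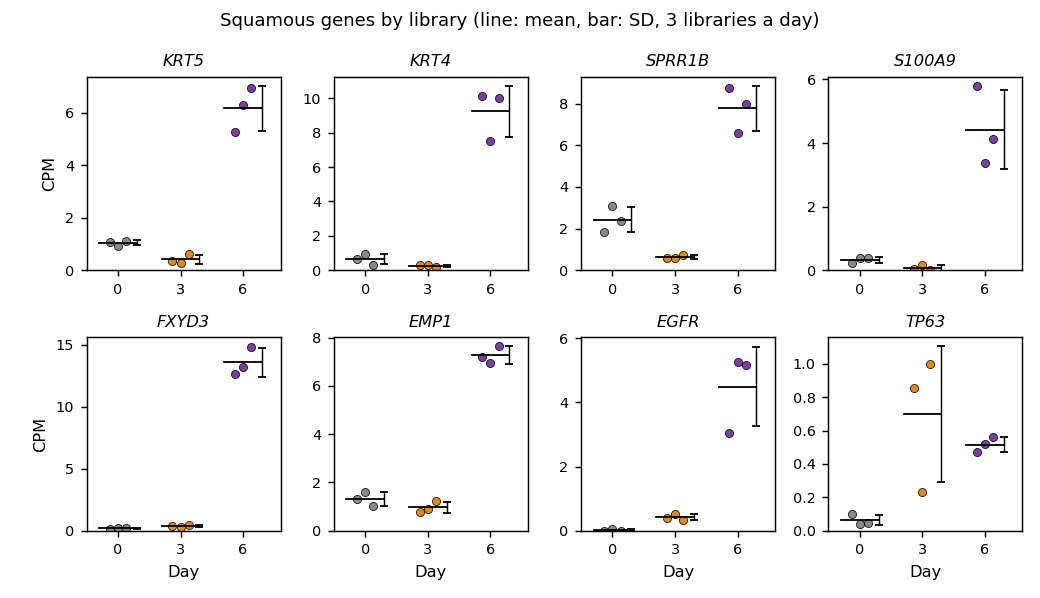
Level in CPM (vertical axis) of 8 genes in each of the 9 libraries (points) on days 0, 3 and 6 (horizontal axis), with the mean (line) and SD (bar) of 3 libraries. All genes but FXYD3 are from the squamous lists. In 7 of the panels the day 6 points lie above all day 3 points, while those of TP63 lie within the day 3 range.

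Promoters of the rising differentiation genes are shown because 16 of the 35 tested members rose. Of the 16 risen members of the differentiation list 14 have a promoter in the RefSeq table (GRCh38.p14), and 7 of these hold the AP-1 motif TGANTCA on either strand in the 250 bases before the start. None of the 10 members with a promoter that were tested and not called holds it, and over all genes it was in 1801 of 27305 such windows (6.6%) and in 3.92% of those of the genes tested. In the basal squamous list it was in 1 of 8 promoters of risen members and in 2 of 8 of those not called. The 7 of the differentiation list were CRNN, SPRR1A, SPRR1B, SPRR2A, SPRR3, SBSN and EMP1, of which 4 are SPRR genes of a single cluster on chromosome 1 with related sequences. The octamer ATGCAAAT, the letters bound by POU factors, was searched likewise and was in 1.66% of all windows, among them that of the falling tuft gene HTR3E described below. The other 3 promoters of falling tuft genes in the table lack it, and that of the risen SPRR2A holds it. The motifs were counted separately, and a match of one may overlap a match of the other. Capitals mark the AP-1 motif in the 4 squamous promoters and the octamer in that of HTR3E, each read 5′ to 3′ on the gene's strand.
SPRR1B (chr1:153030953-153031202, plus strand): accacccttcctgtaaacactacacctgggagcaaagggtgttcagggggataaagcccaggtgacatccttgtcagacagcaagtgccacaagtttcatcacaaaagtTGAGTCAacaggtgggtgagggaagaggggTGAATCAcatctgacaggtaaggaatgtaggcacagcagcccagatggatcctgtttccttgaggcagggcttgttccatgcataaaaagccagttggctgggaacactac
EMP1 (chr12:13196476-13196725, plus strand): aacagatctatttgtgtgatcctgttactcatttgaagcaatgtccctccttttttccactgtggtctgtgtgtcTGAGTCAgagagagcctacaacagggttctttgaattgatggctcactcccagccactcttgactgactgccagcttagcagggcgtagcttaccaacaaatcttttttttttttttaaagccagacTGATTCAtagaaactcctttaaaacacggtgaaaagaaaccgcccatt
CRNN (chr1:152414264-152414513, minus strand): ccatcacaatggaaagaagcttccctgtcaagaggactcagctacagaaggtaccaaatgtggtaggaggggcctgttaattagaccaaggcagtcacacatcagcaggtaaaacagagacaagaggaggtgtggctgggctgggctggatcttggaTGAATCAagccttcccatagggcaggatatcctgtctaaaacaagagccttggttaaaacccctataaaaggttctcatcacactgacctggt
SBSN (chr19:35528312-35528561, minus strand): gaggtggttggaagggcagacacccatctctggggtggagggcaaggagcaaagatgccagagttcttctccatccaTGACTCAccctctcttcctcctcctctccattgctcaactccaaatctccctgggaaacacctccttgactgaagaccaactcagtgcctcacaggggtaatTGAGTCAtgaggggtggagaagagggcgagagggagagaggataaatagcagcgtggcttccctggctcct
HTR3E (chr3:184099929-184100178, plus strand): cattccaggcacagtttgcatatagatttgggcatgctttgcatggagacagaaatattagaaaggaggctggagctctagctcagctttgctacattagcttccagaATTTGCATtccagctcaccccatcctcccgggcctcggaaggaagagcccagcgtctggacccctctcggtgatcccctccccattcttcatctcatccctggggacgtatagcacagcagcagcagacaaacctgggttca
SPRR1B, EMP1 and SBSN each hold 2 matches and CRNN holds 1. A match describes letters in a window and no factor's binding was measured here. The differentiation list was chosen with earlier results known, and 7 of its 16 risen members passed the filter only through day 6. Whether matches differ between risen and other members was not tested.

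Tuft cell genes fell. Of 15 tested genes of this list 7 fell and 1 rose (median log2 fold change -0.31), where 4.87% of all genes fell, and 5 to 7 fell with any 1 library of days 3 and 6 left out. AVIL (chromosome 12, 57797376 to 57818704, minus strand), which encodes the actin-binding protein advillin, was at 77, 82.3 and 79.9 CPM on day 3 and 31.2, 28.5 and 28.4 CPM on day 6 (log2 change -1.44, SE 0.08, adjusted p = 2.74e-07). The serotonin receptor subunit gene HTR3E was at 29, 26.9 and 29 CPM on day 3 and 13, 11.8 and 14.3 CPM on day 6 (log2 change -1.12, SE 0.13, adjusted p = 0.000104). TRPM5, a cation channel of taste signalling, was at 13.8, 12.8 and 13 CPM on day 3 and 5.95, 6.16 and 7.32 CPM on day 6 (log2 change -1.03, SE 0.16, adjusted p = 0.000863). All 3 genes were lower in every day 6 library than in every day 3 library. The master regulator POU2F3 had a smaller fall, at 291, 293 and 282 CPM on day 3 and 232, 219 and 231 CPM on day 6 (log2 change -0.34, SE 0.07, adjusted p = 0.00346). The kinase gene BMX was at 129.6, 127 and 128 CPM on day 3 and 99.6, 100.02 and 91.5 CPM on day 6 (log2 change -0.40, SE 0.08, adjusted p = 0.00385). The transcription factor gene SOX9 (log2 change -0.31, SE 0.07, adjusted p = 0.0129) and the adaptor gene SH2D6 (log2 change -0.31, SE 0.09, adjusted p = 0.0413) fell as well. POU2F3, BMX, SOX9 and SH2D6 were chosen after their values were seen, and the days did not overlap in any of them. The kinase gene MATK rose, at 1.53, 1.57 and 1.48 CPM on day 3 and 5.85, 4.95 and 5.38 CPM on day 6 (log2 change 1.82, SE 0.17, adjusted p = 1.54e-05).

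**Figure D3:**
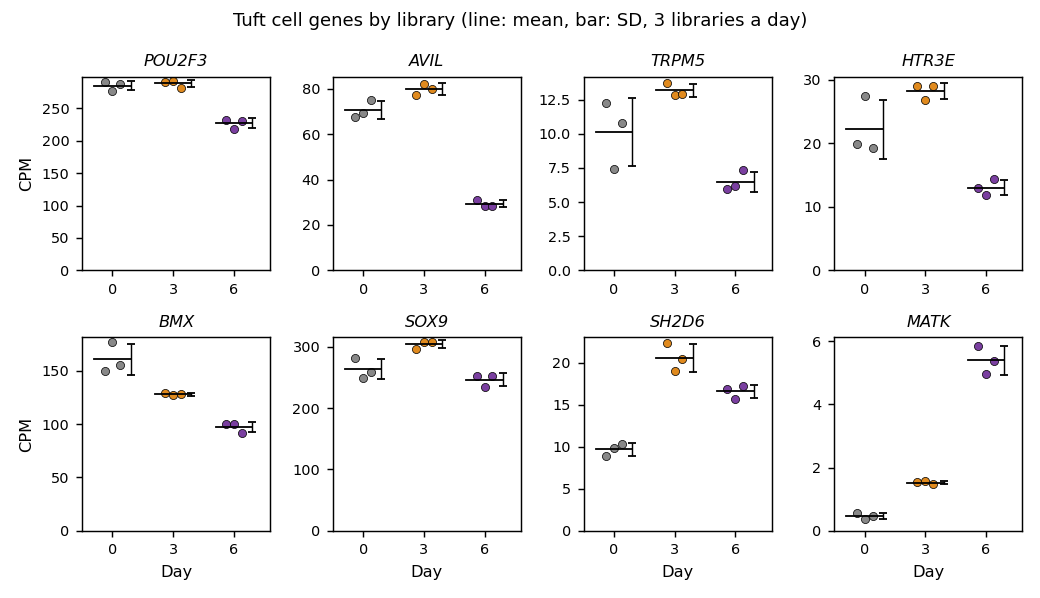
Level in CPM (vertical axis) of 8 tuft cell genes in each of the 9 libraries (points) on days 0, 3 and 6 (horizontal axis), with the mean (line) and SD (bar) of 3 libraries. All day 6 points lie below all day 3 points in every panel but that of MATK, where they lie above.

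Neuroendocrine genes moved in both directions. Of 28 tested genes 9 rose (32.1%) and 4 fell (14.3%), against 11.8% and 4.87% of all genes (median log2 fold change 0.25). No count in any library was found for 9 of the 50 listed genes. The homeobox gene PROX1 was at 170.4, 169 and 164 CPM on day 3 and 108, 116 and 109 CPM on day 6 (log2 change -0.60, SE 0.08, adjusted p = 0.000164), lower in every day 6 library. KIF1A, a kinesin of axonal vesicle transport, was at 3.54, 3.11 and 3.09 CPM on day 3 and 24.4, 25.2 and 30.6 CPM on day 6 (log2 change 3.04, SE 0.16, adjusted p = 3.02e-07). FOXA2, a transcription factor of gut and neuroendocrine cells, was at 0.112, 0.201 and 0.217 CPM on day 3 and 2.32, 1.81 and 2.02 CPM on day 6 (log2 change 3.51, SE 0.33, adjusted p = 5.87e-05). Both were higher in every day 6 library. The adhesion molecule gene NCAM1 was at 15.4, 15.7 and 14.9 CPM on day 3 and 21.3, 19.4 and 19.4 CPM on day 6 (log2 change 0.38, SE 0.10, adjusted p = 0.0158), a call that was lost without D3_1, D3_2, D3_3 or D6_1 (adjusted p up to 0.0816). The count of rises was 3 without D6_1, 5 without D3_3, D6_2 or D6_3 and 6 without D3_2. INSM1 was at 4.55, 3.51 and 4.13 CPM on day 3 and 5.18, 5 and 5.77 CPM on day 6 (log2 change 0.39, SE 0.14, adjusted p = 0.0783). The synaptic vesicle gene SYP was at 4.62, 4.91 and 4.82 CPM on day 3 and 5.71, 6.59 and 5.9 CPM on day 6 (log2 change 0.34, SE 0.14, adjusted p = 0.126). Neither passed, though both did in the fit of the 6 libraries alone (adjusted p = 0.0485 and 0.0447) and without D0_2 (0.0418 and 0.0421). NEUROD1 was at 2.42, 2.57 and 3.13 CPM on day 3 and 1.82, 2.97 and 3.44 CPM on day 6 (log2 change 0.01, SE 0.24, adjusted p = 0.985). REST, a repressor of neuronal genes, was at 50.8, 50.02 and 46.8 CPM on day 3 and 50.6, 57.5 and 44.9 CPM on day 6 (log2 change 0.05, SE 0.09, adjusted p = 0.766). Neither was called, and both overlapped between days.

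Genes of excitable membranes and axon guidance rose from low levels. Of 23 tested calcium and sodium channel genes 12 rose (52.2%, median log2 fold change 0.68), where 11.8% of all genes rose and 4.87% fell. Of 38 potassium channel genes 13 rose (34.2%) and 3 fell (7.89%), and of 44 axon guidance genes 19 rose (43.2%) and 3 fell (6.82%). CACNA1B, the N-type calcium channel, was at 8.91, 7.05 and 6.65 CPM on day 3 and 40.1, 42.2 and 50.9 CPM on day 6 (log2 change 2.55, SE 0.15, adjusted p = 5.2e-07). CACNA1H, a T-type channel, was at 6.6, 5.82 and 5.48 CPM on day 3 and 17.7, 17.5 and 20.3 CPM on day 6 (log2 change 1.63, SE 0.11, adjusted p = 1.59e-06). The sodium channel gene SCN9A was at 1.98, 1.97 and 2.09 CPM on day 3 and 6.62, 7.11 and 7.02 CPM on day 6 (log2 change 1.78, SE 0.14, adjusted p = 5.59e-06). The days stood apart in all 3. The sodium-activated potassium channel gene KCNT1 went from 8.28 ± 0.474 to 30.6 ± 0.822 CPM (log2 change 1.89, SE 0.10, adjusted p = 2.37e-07). KCNH2, which encodes the hERG channel, fell from 261 ± 6.01 to 145 ± 13.8 CPM (log2 change -0.85, SE 0.09, adjusted p = 4.78e-05). Among axon guidance genes the adhesion gene L1CAM was at 9.13, 7.72 and 8.3 CPM on day 3 and 28.9, 36.2 and 42.3 CPM on day 6 (log2 change 2.09, SE 0.16, adjusted p = 3.12e-06). The receptor gene ROBO3 was at 2.42, 1.91 and 1.74 CPM on day 3 and 10.1, 10.1 and 11.8 CPM on day 6 (log2 change 2.39, SE 0.19, adjusted p = 4.92e-06). DPYSL3, a phosphoprotein of growth cones, was at 1.98, 1.97 and 2.17 CPM on day 3 and 12.5, 13.1 and 14.5 CPM on day 6 (log2 change 2.71, SE 0.14, adjusted p = 2.37e-07). Every day 6 library exceeded every day 3 library for each. Channel rises numbered 7 without D3_2 or D6_3, and axon guidance rises 11 without D6_1 and 12 without D6_3. Synaptic vesicle genes gave 8 rises (27.6%) and 3 falls (10.3%) of 29, and 5 rises without D6_3. Among them the calcium sensor gene DOC2B went from 0.761 ± 0.214 to 5.6 ± 0.734 CPM (log2 change 2.86, SE 0.27, adjusted p = 2.02e-05).

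Matrix and mesenchymal genes rose, with a sharp exception. Of 28 collagen genes 12 rose and 2 fell, and of 35 matrix glycoprotein and protease genes 14 rose and 2 fell. Of 28 integrin and laminin genes 8 rose and 1 fell, and of 20 mesenchymal genes 9 rose and 3 fell. In this order rises were 42.9%, 40%, 28.6% and 45% of the lists, against 11.8% of all genes. Falls were 7.14%, 5.71%, 3.57% and 15%, against 4.87%. COL6A1 (chromosome 21, 45981737 to 46005050, plus strand), a chain of the microfibrillar collagen VI, was at 10.1, 9.5 and 8.39 CPM on day 3 and 35.7, 34.5 and 43.6 CPM on day 6 (log2 change 2.02, SE 0.16, adjusted p = 4.67e-06). COL6A2 was at 3.13, 2.34 and 2 CPM on day 3 and 16.5, 18.4 and 19.3 CPM on day 6 (log2 change 2.85, SE 0.19, adjusted p = 1.56e-06). COL5A1, a chain of collagen V, was at 5.52, 3.44 and 3.87 CPM on day 3 and 22.4, 23.3 and 26.6 CPM on day 6 (log2 change 2.50, SE 0.16, adjusted p = 1.09e-06). Another collagen VI chain gene, COL6A6, went the other way, at 25.3, 25.7 and 22.9 CPM on day 3 and 6.82, 6.16 and 6.76 CPM on day 6, and had the largest fall among genes averaging 5 CPM or more (log2 change -1.90, SE 0.17, adjusted p = 1.31e-05). The days did not overlap in these 4 genes. FBLN1, which encodes the matrix protein fibulin-1 and is one of the fibroblast markers, was at 2.68, 2.17 and 1.35 CPM on day 3 and 21.2, 21.4 and 25.4 CPM on day 6 (log2 change 3.43, SE 0.20, adjusted p = 5.2e-07). COL1A1, also a fibroblast marker, went from 3.6 ± 0.532 to 9.52 ± 1.06 CPM (log2 change 1.40, SE 0.16, adjusted p = 9.06e-05). COL1A2, chosen after its values were seen, was at 0.522, 0.401 and 0.478 CPM on day 3 and 0.471, 0.345 and 0.689 CPM on day 6 and made no call (log2 change 0.10, SE 0.55, adjusted p = 0.929). The laminin gene LAMC1 went from 2.44 ± 0.167 to 10.4 ± 1.01 CPM (log2 change 2.09, SE 0.14, adjusted p = 1.59e-06). The actin-binding caldesmon gene CALD1 went from 0.345 ± 0.078 to 5.63 ± 0.585 CPM (log2 change 4.03, SE 0.28, adjusted p = 2.26e-06). TGFBI, a matrix protein gene induced by TGF-beta, went from 10.3 ± 0.768 to 36.3 ± 2.3 CPM (log2 change 1.83, SE 0.09, adjusted p = 2.37e-07). Matrix glycoprotein rises numbered 9 without D6_3.

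The genes with the largest changes came from several groups. Besides FXYD3, FBLN1 and KIF1A, the largest rises at an average of 5 CPM or more included INHBB, which encodes a subunit of activin and inhibin. It was at 0.895, 0.368 and 0.391 CPM on day 3 and 9.28, 9.39 and 10.3 CPM on day 6 (log2 change 4.12, SE 0.30, adjusted p = 2.82e-06). The neuronal glucose transporter gene SLC2A3 was at 1.08, 0.736 and 0.826 CPM on day 3 and 11.4, 13.9 and 15.2 CPM on day 6 (log2 change 3.93, SE 0.22, adjusted p = 4.6e-07). All day 6 libraries exceeded all day 3 libraries in each. LSP1, an actin-binding gene of leukocytes, the hyaluronan synthase gene HAS1, SEL1L3, CYFIP2, which encodes a subunit of an actin regulatory complex, and SH3TC1 rose by log2 3.02 to 3.27, each with no overlap. LSP1 was at 2.42, 1.77 and 2 CPM on day 3 and 18.5, 20.2 and 21.1 CPM on day 6. ZNF354B, a zinc finger gene, met the same rule but its day 6 libraries differed widely, at 11.1, 10.4 and 11.6 CPM on day 3 and 13, 102 and 305 CPM on day 6 (log2 change 3.66, SE 1.07, adjusted p = 0.0363). On day 0 it was at 11.1, 21.8 and 161 CPM, so that 1 library of that day was also high. Its call was lost without D3_1, D3_2, D3_3, D6_2 or D6_3 (adjusted p up to 0.199), with limma-voom and when only genes averaging 5 CPM or more were tested. Genes that rose from a day 3 mean under 0.5 CPM to the highest day 6 levels were FXYD3, KRT4, KRT5, CALD1 and 4 others. PADI1, which encodes an enzyme that citrullinates keratins, went from 0.338 ± 0.0358 to 6.52 ± 1.5 CPM (log2 change 4.24, SE 0.38, adjusted p = 1.08e-05). The growth factor binding gene IGFBP5 went from 0.388 ± 0.0144 to 6.21 ± 0.934 CPM (log2 change 3.98, SE 0.24, adjusted p = 2.89e-06). The adhesion receptor gene ADGRB1 went from 0.489 ± 0.19 to 5.58 ± 0.764 CPM (log2 change 3.50, SE 0.25, adjusted p = 2.64e-06). Each was lower in all day 3 libraries than in any day 6 library. CYP1A1, a monooxygenase induced through the aryl hydrocarbon receptor, went from 0.37 ± 0.0951 to 5.51 ± 0.653 CPM (log2 change 3.90, SE 0.24, adjusted p = 7.97e-07). It was at 0.882, 1.24 and 1.18 CPM on day 0 and had fallen by day 3 (log2 change -1.56, edgeR adjusted p = 0.000938).

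The largest falls were smaller than the largest rises. Besides COL6A6 and AVIL they included PAK3, a p21-activated kinase gene of neurons, at 41.4, 41.9 and 38.5 CPM on day 3 and 15.3, 14.4 and 13.4 CPM on day 6 (log2 change -1.50, SE 0.11, adjusted p = 2.64e-06). The insulin receptor substrate gene IRS4 was at 160.4, 165 and 143 CPM on day 3 and 65.8, 57.2 and 53.8 CPM on day 6 (log2 change -1.40, SE 0.26, adjusted p = 0.00277). SRGN, which encodes the granule proteoglycan serglycin, was at 14.9, 15 and 14.9 CPM on day 3 and 6.32, 5.51 and 5.42 CPM on day 6 (log2 change -1.37, SE 0.13, adjusted p = 2.25e-05). The days did not overlap in these genes. The phospholamban gene PLN was at 8.68, 9.56 and 10.1 CPM on day 3 and 3.76, 3.79 and 3.62 CPM on day 6 (log2 change -1.34, SE 0.16, adjusted p = 0.000121). PLN, HHIP, an antagonist of Hedgehog ligands, SOSTDC1, a secreted antagonist of BMP and WNT signals, AGMO, an ether lipid enzyme gene, the GABA receptor subunit gene GABRR3, INSYN2A and C1orf127 fell by log2 amounts from -1.40 to -1.18, with no overlap. In absolute level the largest gain among called genes was in GAPDH and the largest loss in ALDH1A1, an aldehyde dehydrogenase that makes retinoic acid. It was at 1168, 1241 and 1215 CPM on day 3 and 966, 922 and 857 CPM on day 6 (log2 change -0.40, SE 0.09, adjusted p = 0.0114). TFRC, the transferrin receptor, went from 833 ± 21.2 to 681 ± 39.4 CPM. The ALDH1A1 call was lost without D3_2 or D6_3 (adjusted p up to 0.0617), and that of TFRC (log2 change -0.29, SE 0.07, adjusted p = 0.0178) without D3_1, D3_2, D3_3, D6_1 or D6_3 (up to 0.1). ITPR2, an intracellular calcium release channel, fell from 264 ± 9.24 to 150.2 ± 14.9 CPM (log2 change -0.81, SE 0.11, adjusted p = 0.00039). The secreted serpin gene SERPINF1 fell from 354 ± 6.06 to 231 ± 13.8 CPM (log2 change -0.62, SE 0.10, adjusted p = 0.000785). The neurofilament gene NEFL fell from 344 ± 26.2 to 210.4 ± 22.8 CPM (log2 change -0.71, SE 0.12, adjusted p = 0.00144). BRI3BP, MTDH and KCNH2 were the other large losses in level.

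Genes induced by growth factor signalling rose. Of 35 genes of the AP-1 and immediate early list 17 rose (48.6%, median log2 fold change 0.32), where 11.8% of all genes rose. Of 61 receptor tyrosine kinase and ligand genes 22 rose (36.1%) and 4 fell (6.56%, against 4.87% of all genes). DUSP6, a phosphatase gene that is induced by and restrains the kinase ERK, was at 5.14, 3.61 and 4.56 CPM on day 3 and 19.4, 21.1 and 20.1 CPM on day 6 (log2 change 2.19, SE 0.17, adjusted p = 3.85e-06). DUSP4, of the same family, was at 47.2, 40.2 and 43.8 CPM on day 3 and 90.4, 102 and 104 CPM on day 6 (log2 change 1.18, SE 0.09, adjusted p = 3.76e-06). The ETS factor gene ETV5 was at 26.3, 18.4 and 24.3 CPM on day 3 and 52.9, 63.1 and 69.7 CPM on day 6 (log2 change 1.43, SE 0.15, adjusted p = 4.74e-05). PHLDA1 was at 12.4, 11.2 and 10.0 CPM on day 3 and 28.3, 34.7 and 31.7 CPM on day 6 (log2 change 1.49, SE 0.11, adjusted p = 2.31e-06). In all 4 the days stood apart. The AP-1 subunit genes FOS (log2 change 0.91, SE 0.15, adjusted p = 0.00099) and FOSL1 (log2 change 1.06, SE 0.25, adjusted p = 0.0103), chosen after their values were seen, rose too. Without D3_3 the list had 11 rises. Among ligands and receptors TGFA, a ligand of EGFR, was at 1.75, 1.91 and 1.61 CPM on day 3 and 6.66, 8.74 and 7.58 CPM on day 6 (log2 change 2.12, SE 0.17, adjusted p = 4.59e-06). The receptor gene FGFR1 went from 25.3 ± 1.37 to 43.9 ± 2.72 CPM (log2 change 0.79, SE 0.10, adjusted p = 0.000151). The growth factor gene FGF1 fell from 38.8 ± 2.49 to 22.5 ± 2.22 CPM (log2 change -0.78, SE 0.09, adjusted p = 8.75e-05).

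Hypoxia-related and glycolytic genes rose. Of 44 tested genes 21 rose (47.7%, median log2 fold change 0.34), and in the fit of the 6 libraries alone 33 did. Over all genes 11.8% rose, and 16.5% in the fit of the 6 libraries. NDRG1, a stress-responsive gene induced by low oxygen, was at 125, 106 and 119 CPM on day 3 and 329, 399.6 and 437 CPM on day 6 (log2 change 1.74, SE 0.15, adjusted p = 8.06e-06). PLOD2, a collagen lysyl hydroxylase gene, was at 4.73, 3.98 and 3 CPM on day 3 and 21, 24 and 19.5 CPM on day 6 (log2 change 2.45, SE 0.17, adjusted p = 2.31e-06). ARNT2, a partner of hypoxia-inducible factors, was at 9.36, 9.26 and 9.91 CPM on day 3 and 38.3, 38.9 and 41.1 CPM on day 6 (log2 change 2.05, SE 0.12, adjusted p = 5.2e-07). VEGFA, the angiogenic growth factor gene, was at 255, 220.5 and 237 CPM on day 3 and 308, 353 and 349 CPM on day 6 (log2 change 0.50, SE 0.09, adjusted p = 0.0028). None of these overlapped between days. Enzymes of glycolysis rose less: GAPDH was at 3922, 4111 and 4227 CPM on day 3 and 5178, 4935 and 5844 CPM on day 6 (log2 change 0.38, SE 0.11, adjusted p = 0.0381), and ENO1, PGK1 and GPI rose by log2 0.37, 0.38 and 0.31. The GAPDH, PGK1 and GPI calls were lost whenever 1 library of days 3 and 6 was left out (adjusted p up to 0.151, 0.132 and 0.162), that of GPI also without D0_1 or D0_3, and that of ENO1 without D3_1, D3_2 or D6_3 (up to 0.0876). Without D3_2 or D6_3 the list had 12 rises, and without D3_3 or D6_2 it had 13. SLC2A1, the main glucose transporter of most cells and chosen after its values were seen, was at 78.5, 81.7 and 85.3 CPM on day 3 and 78.6, 78.1 and 92.3 CPM on day 6 and made no call (log2 change 0.02, SE 0.08, adjusted p = 0.908).

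DNA replication genes fell by small amounts. Of 54 tested genes 14 fell (25.9%; median log2 fold change -0.21), where 4.87% of all genes did, and 30 had an unadjusted p under 0.05 in that direction. In the fit of the 6 libraries alone 34 fell, where 12% of all genes did. In 43 of the 54 all day 6 libraries lay below all day 3 libraries, as in 20.8% of all genes. CHAF1B, a histone chaperone subunit, was at 69.9, 72.5 and 74.6 CPM on day 3 and 57.1, 57.5 and 55.5 CPM on day 6 (log2 change -0.35, SE 0.07, adjusted p = 0.00344). RRM2, a ribonucleotide reductase subunit, was at 226, 246 and 239 CPM on day 3 and 196, 185 and 187 CPM on day 6 (log2 change -0.33, SE 0.08, adjusted p = 0.0114). MCM3, of the replicative helicase, went from 274 ± 8.35 to 224 ± 9.49 CPM (log2 change -0.29, SE 0.07, adjusted p = 0.0135). The days did not overlap in these genes, but the calls of RRM2 and MCM3 were lost without D3_2, D3_3 or D6_2 (adjusted p up to 0.0706 and 0.0845). Without D3_2 or D3_3 the list had 1 fall, without D6_2 it had 4, without D6_3 5 and without D3_1 8. Over all genes the falls in these fits numbered 347, 364, 411, 428 and 399 in the same order, against 740 in the main fit. Of 56 tested mitosis genes 1 rose (1.79%, against 11.8% of all genes) and 0 fell. The rise was that of the kinesin gene KIF20A (log2 change 0.22, SE 0.07, adjusted p = 0.0468), a call lost whenever 1 library of days 3 and 6, D0_1 or D0_3 was left out (up to 0.182). With the 6 libraries alone 6 mitosis genes rose and 6 fell, where 16.5% and 12% of all genes did. The difference between both lists was not tested.

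Regulators of the cell cycle moved in both directions. The inhibitor gene CDKN1A, which encodes p21, was at 9.06, 9.63 and 9.34 CPM on day 3 and 14.7, 15.3 and 17.9 CPM on day 6 (log2 change 0.77, SE 0.13, adjusted p = 0.00108). CCND1, which encodes cyclin D1, was at 40.9, 40.9 and 40.2 CPM on day 3 and 65.1, 67.2 and 68 CPM on day 6 (log2 change 0.72, SE 0.07, adjusted p = 1.39e-05). E2F1, a transcription factor of S-phase genes, was at 82.9, 91.6 and 88.4 CPM on day 3 and 59.9, 51.1 and 59.7 CPM on day 6 (log2 change -0.62, SE 0.08, adjusted p = 0.000238). In all 3 the days stood apart. Of 27 genes of this list 3 rose (11.1%) and 5 fell (18.5%), against 11.8% and 4.87% of all genes. With the 6 libraries alone 10 fell, where 12% of all genes did. CDKN1C, the gene of the inhibitor p57, was at 7.98, 8.32 and 10.2 CPM on day 3 and 9.44, 10.0 and 12.8 CPM on day 6 and did not pass (log2 change 0.29, SE 0.14, adjusted p = 0.207). Among p53 targets 3 rose and 4 fell of 26, with BBC3, which encodes the death-promoting PUMA, at 11.5, 10.5 and 10.6 CPM on day 3 and 18, 17.1 and 19.6 CPM on day 6 (log2 change 0.75, SE 0.09, adjusted p = 0.000147) and the stress gene GADD45A lower, from 19.5 ± 1.23 to 13.4 ± 0.522 CPM (log2 change -0.54, SE 0.11, adjusted p = 0.0048). MYC was at 239.7, 238 and 247 CPM on day 3 and 285, 252 and 284 CPM on day 6 and did not pass (log2 change 0.18, SE 0.09, adjusted p = 0.216), though it did with the 6 libraries alone (0.045) and without D0_2 (0.0281).

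Developmental transcription factor genes, which PRC2 often covers, rose more often than they fell. Of 97 tested 34 rose and 9 fell, where 11.8% and 4.87% of all genes did, and 7 of the rises were in genes that passed the filter only through day 6. WT1, a factor of kidney and gonad development, was at 0.634, 0.736 and 1 CPM on day 3 and 3.09, 4.61 and 3.92 CPM on day 6 (log2 change 2.29, SE 0.27, adjusted p = 9.39e-05). EYA2, a phosphatase and transcriptional co-factor, was at 0.596, 0.535 and 0.304 CPM on day 3 and 2.52, 3.19 and 3.23 CPM on day 6 (log2 change 2.60, SE 0.27, adjusted p = 4.48e-05). OTX1, a homeobox gene of the brain, was at 42.7, 43.5 and 43.6 CPM on day 3 and 25.2, 24.4 and 28.3 CPM on day 6 (log2 change -0.74, SE 0.08, adjusted p = 5.28e-05). The days did not overlap in any of them. Rises numbered 20 without D6_1 or D6_3 and 21 without D6_2. Of 36 HOX genes 4 rose and 3 fell, with HOXB9 higher, at 0.261, 0.501 and 0.608 CPM on day 3 and 1.85, 2.37 and 1.89 CPM on day 6 (log2 change 2.15, SE 0.32, adjusted p = 0.00116), and HOXC5 lower, at 38, 39.7 and 39.7 CPM on day 3 and 23.2, 22.6 and 25.8 CPM on day 6 (log2 change -0.71, SE 0.08, adjusted p = 9.06e-05). Whether HOX genes differ from the other factors was not tested.

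**Figure D4:**
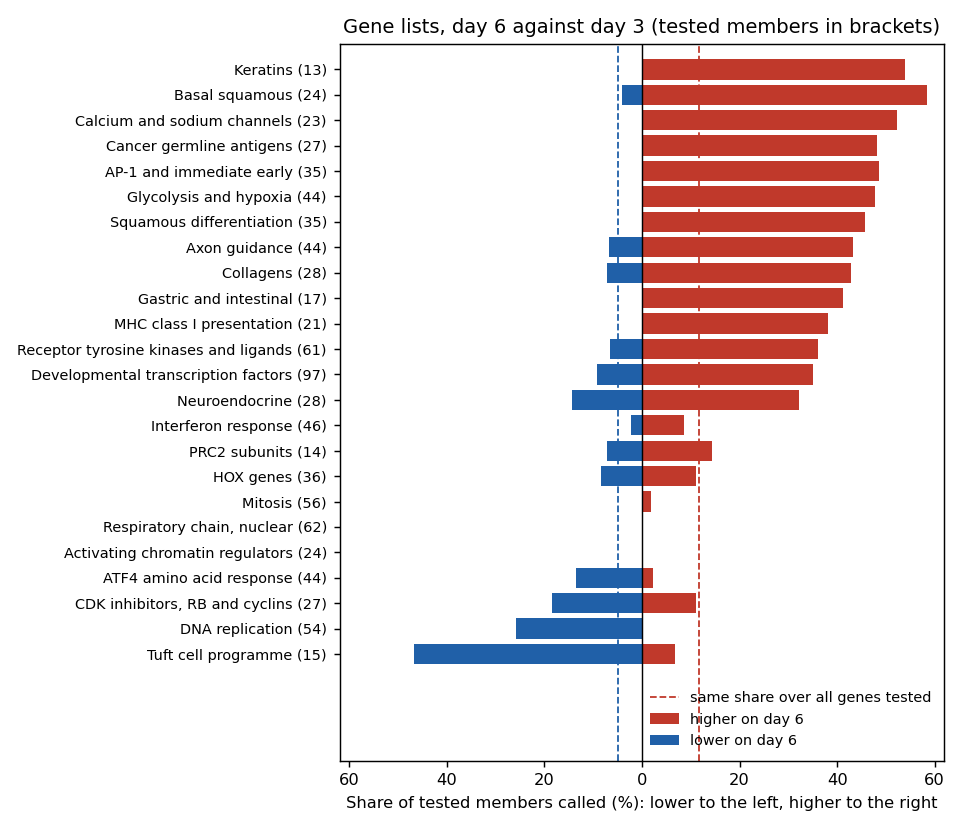
Share of tested members in percent that were called lower (blue, to the left) or higher (red, to the right) on day 6 than on day 3 for 24 gene lists, with the number of tested members in brackets and the shares over all genes tested (4.87% and 11.8%) as dashed lines. The basal squamous, keratin and calcium and sodium channel lists reach furthest to the right, and the tuft cell and DNA replication lists furthest to the left.

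Signalling lists had larger shares of rises than all genes (11.8%) in the main fit. They were 24.2% for Notch, 19% for WNT, 21.6% for TGF-beta and BMP, 20% for Hedgehog and 20% for YAP. Falls were 3.03%, 2.38%, 11.8%, 6.67% and 8% of these lists, against 4.87% of all genes. In the Notch list 8 of 33 genes rose and 1 fell. Its target HES1, a repressor of proneural genes, was at 16.8, 17.4 and 19.1 CPM on day 3 and 39.6, 46.4 and 49.6 CPM on day 6 (log2 change 1.35, SE 0.14, adjusted p = 5.21e-05), above day 3 in every library, while the receptor gene NOTCH1 was at 1.57, 2.31 and 2.35 CPM on day 3 and 2.05, 1.38 and 1.64 CPM on day 6 and made no call (log2 change -0.29, SE 0.45, adjusted p = 0.74). The Notch rises numbered 3 without D3_2, D3_3, D6_1 or D6_3 and 5 without D3_1 or D6_2. In the WNT list 8 of 42 rose and 1 fell, among them the receptor gene FZD8, at 4.55, 4.85 and 6.17 CPM on day 3 and 17.4, 19.3 and 22.7 CPM on day 6 (log2 change 1.94, SE 0.14, adjusted p = 2.64e-06), and the feedback inhibitor gene NKD1, which went from 3.88 ± 0.482 to 12.7 ± 0.578 CPM (log2 change 1.71, SE 0.14, adjusted p = 7.51e-06). The WNT rises numbered 3 without D3_2 or D6_3, 4 without D6_1 and 5 without D3_3 or D6_2. Of 51 genes of TGF-beta and BMP signalling 11 rose and 6 fell, with the ligand genes BMP2 (from 0.275 ± 0.0853 to 1.71 ± 0.242 CPM; log2 change 2.61, SE 0.39, adjusted p = 0.00061) and BMP7 (from 0.0981 ± 0.142 to 1.36 ± 0.341 CPM; log2 change 3.88, SE 0.62, adjusted p = 0.000929) higher and ID3, a BMP target, lower (from 8.8 ± 0.39 to 4.5 ± 0.213 CPM; log2 change -0.96, SE 0.13, adjusted p = 0.000238). Its rises numbered 4 without D6_2, 5 without D6_1 and 7 without D3_2, D3_3 or D6_3. Hedgehog genes gave 3 rises and 1 fall of 15. YAP1, the co-activator of the Hippo pathway, was at 0.559, 0.368 and 0.739 CPM on day 3 and 3.43, 5.3 and 4.65 CPM on day 6 (log2 change 3.02, SE 0.30, adjusted p = 8.03e-05), with all day 6 libraries above day 3, and 5 of 25 genes of its list rose and 2 fell.

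Polycomb genes were called at shares near those over all genes. Of 14 PRC2 genes 2 rose (14.3%) and 1 fell (7.14%), against 11.8% and 4.87% of all genes. For the PRC1 genes below the shares were 8% and 4%. EZH2 (chromosome 7, 148807383 to 148884321, minus strand) was at 167, 169 and 164 CPM on day 3 and 154, 156 and 141 CPM on day 6 and did not pass (log2 change -0.15, SE 0.07, adjusted p = 0.168), although its days did not overlap, and it did pass without D0_2 (0.0368). Its partners SUZ12 (from 131 ± 1.07 to 116 ± 6.98 CPM; log2 change -0.18, SE 0.08, adjusted p = 0.197) and EED (from 29.4 ± 0.813 to 27.9 ± 2.2 CPM; log2 change -0.08, SE 0.10, adjusted p = 0.668) and its paralog EZH1 (from 43.9 ± 1.09 to 41.6 ± 2.35 CPM; log2 change -0.08, SE 0.08, adjusted p = 0.602) did not pass either, and SUZ12 did with the 6 libraries alone (0.0347) and without D0_2 (0.0326). EZHIP, which encodes an inhibitor of PRC2, was at 1.45, 1.6 and 1.74 CPM on day 3 and 4.37, 4.18 and 4.3 CPM on day 6 (log2 change 1.42, SE 0.19, adjusted p = 0.00022), with the days apart. The accessory subunit gene JARID2 rose from 38.9 ± 2.22 to 48 ± 0.769 CPM (log2 change 0.30, SE 0.09, adjusted p = 0.0424) and AEBP2 fell from 148 ± 2.84 to 118 ± 8.85 CPM (log2 change -0.34, SE 0.08, adjusted p = 0.00994). The JARID2 call was lost whenever 1 library of days 3 and 6 was left out (up to 0.166) and that of AEBP2 without D3_3 (0.052). Of 25 PRC1 genes 2 rose and 1 fell, with PHC1 higher (61.5, 59.7 and 57.8 CPM on day 3 and 80.1, 85.7 and 90.8 CPM on day 6; log2 change 0.52, SE 0.07, adjusted p = 0.000295). Of 24 genes of activating chromatin regulators edgeR called 0 in either direction, with 0 at an unadjusted p under 0.05 and 0 by DESeq2 or limma-voom. With the 6 libraries alone 7 fell, where 12% of all genes did. In 11 of the 24 all day 6 libraries lay below all day 3 libraries, against 20.8% of all genes, and the median log2 fold change was -0.104. EP300, an acetyltransferase gene, was at 544, 522 and 518 CPM on day 3 and 468, 445 and 494 CPM on day 6 (log2 change -0.17, SE 0.12, adjusted p = 0.402), lower in every day 6 library. It passed with the 6 libraries alone (0.0442) and without D0_2 (0.025). None of these values measures how far the enzyme was inhibited.

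Genes of MHC class I presentation, germline antigens and gastric and intestinal epithelium had larger shares of rises (38.1%, 48.1% and 41.2%) than all genes tested (11.8%). Of 21 MHC class I genes 8 rose. The peptide transporter gene TAP1 was at 17.7, 18.2 and 18.2 CPM on day 3 and 23.2, 23.4 and 26.9 CPM on day 6 (log2 change 0.44, SE 0.08, adjusted p = 0.00282). HLA genes resemble each other, so their counts are uncertain. Of 46 interferon response genes 4 rose and 1 fell, near the shares over all genes. With the 6 libraries alone 10 rose, where 16.5% of all genes did. Of 27 cancer germline genes 13 rose. MAGEA11 was at 3.24, 3.01 and 2.74 CPM on day 3 and 10.6, 11.9 and 9.94 CPM on day 6 (log2 change 1.85, SE 0.14, adjusted p = 3.03e-06). GAGE2A, one of a set of near-identical copies, was at 0.783, 0.334 and 0.522 CPM on day 3 and 6.89, 4.87 and 5.73 CPM on day 6 (log2 change 3.42, SE 0.27, adjusted p = 4.68e-06). All day 6 libraries exceeded those of day 3 in these 3 genes. Many germline antigen genes lie on the X chromosome, where 19.4% of 526 tested genes rose. Of 17 gastric and intestinal genes 7 rose, among them the mucin gene MUC5B (11.6, 11.3 and 13.3 CPM on day 3 and 28.2, 24.1 and 33.5 CPM on day 6; log2 change 1.25, SE 0.14, adjusted p = 7.32e-05). The simple epithelial list had 5 rises (16.7%) and 2 falls (6.67%) among 30 genes, against 11.8% and 4.87% over all genes. It had 11 rises in the 6 libraries alone, where 16.5% of all genes rose. The tight junction gene CLDN4 was at 57.4, 55.7 and 63.1 CPM on day 3 and 119.7, 112 and 136 CPM on day 6 (log2 change 1.06, SE 0.09, adjusted p = 7.51e-06). The epithelial factor gene ELF3 went from 69.7 ± 4.4 to 106 ± 9.71 CPM (log2 change 0.60, SE 0.11, adjusted p = 0.00313). KRT8 and KRT18, the keratin genes of simple epithelia, rose by log2 0.30 and 0.35, calls lost without D3_1, D3_2 or D6_3 and for KRT8 also without D3_3 or D6_1 (up to 0.107 and 0.0781). Simple epithelial rises numbered 2 without D3_1, D3_2 or D6_3 and 3 without D3_3 or D6_1, and interferon rises 2 without D3_3, D6_1 or D6_2.

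Stress and housekeeping genes were mostly not called, with shares that differed between lists. Falls were 13.6% of the amino acid response genes, 5.13% of chaperone genes and 8.7% of MYC network genes, against 4.87% of all genes. Rises were 2.27%, 2.56% and 4.35% of these lists, against 11.8% of all genes. Of 44 genes of the amino acid response controlled by ATF4 6 fell and 1 rose, with ATF5, a factor of that response, at 52.4, 37.3 and 44.9 CPM on day 3 and 31.8, 29.8 and 30.5 CPM on day 6 (log2 change -0.55, SE 0.11, adjusted p = 0.00422), and 15 fell with the 6 libraries alone. Without D3_1 or D6_1 the list had 1 fall, without D3_2 2 and without D3_3 or D6_2 3. Of 39 chaperone genes 2 fell and 1 rose, and of 46 genes of the MYC network and ribosome biogenesis 4 fell and 2 rose, against 10 and 12 falls with the 6 libraries alone. In the fit of the 6 libraries 12% of all genes fell. MYCN, a MYC family gene, was at 0.745, 1.07 and 0.478 CPM on day 3 and 2.62, 3.19 and 3.83 CPM on day 6 (log2 change 2.03, SE 0.30, adjusted p = 0.000527), with the days apart. Of 62 nuclear genes of the respiratory chain edgeR called 0, with 1 at an unadjusted p under 0.05, 1 by DESeq2 and 0 by limma-voom, and ATP5F1B was at 823, 933 and 974 CPM on day 3 and 935, 866 and 993 CPM on day 6 (log2 change 0.03, SE 0.10, adjusted p = 0.869). Of 13 mitochondrially encoded genes edgeR called 0, as did DESeq2 and limma-voom, with 0 at an unadjusted p under 0.05. The 95% interval of the change lay within 1.25-fold for 4661 of all genes tested (30.7%).

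The pace of change differed between both intervals for some genes. The change from day 3 to day 6 differed from that of day 0 to day 3 for 1170 genes (7.7% of those tested, edgeR contrast of both changes), being higher for 252 and lower for 918. The day 3 libraries enter both changes, with opposite signs. Without D0_2 the count was 2826, and without D3_1, D3_2, D3_3, D6_1 or D6_2 it was 456, 481, 431, 615 and 694. Among genes called in this contrast and from day 3 to day 6, 84 rises and 190 falls reversed the sign of the first change. Genes called in both tests whose changes had opposite signs include NRCAM, a neuronal adhesion gene, at 13.5, 12 and 13.5 CPM on day 0 and at 5.67, 6.32 and 5.39 CPM on day 3 and 15.9, 15.8 and 14.3 CPM on day 6. It was lowest on day 3, with all libraries of that day below those of both other days. MYOF, a membrane repair gene, was at 5.1, 4.43 and 5.84 CPM on day 0 and at 3.47, 2.01 and 2.82 CPM on day 3 and 12.5, 12.7 and 10.5 CPM on day 6, and the metalloprotease-family gene ADAM28 at 56.1, 60.4 and 54 CPM and at 39.6, 29.4 and 31.7 CPM on day 3 and 88.2, 98.9 and 85.1 CPM on day 6. Both were lowest on day 3 too. In the other direction SRGN was at 4.28, 6.35 and 5.47 CPM on day 0 and PAK3 at 22.9, 17 and 20.3 CPM, and both were highest on day 3. TMEM176B, a membrane protein gene, was at 25.8, 32.8 and 29.8 CPM on day 0 and at 74.1, 79.5 and 78.1 CPM on day 3 and 44.2, 40.7 and 46.2 CPM on day 6, and the synaptic vesicle gene SV2B at 8.92, 9.42 and 9.42 CPM and at 29.6, 26.7 and 27.9 CPM on day 3 and 22.4, 22.3 and 23.6 CPM on day 6. The SV2B fall from day 3 was small (log2 change -0.30, SE 0.08, adjusted p = 0.0173) and its call was lost without D3_1, D3_3, D6_1 or D6_2 (adjusted p up to 0.0907).

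**Figure D5:**
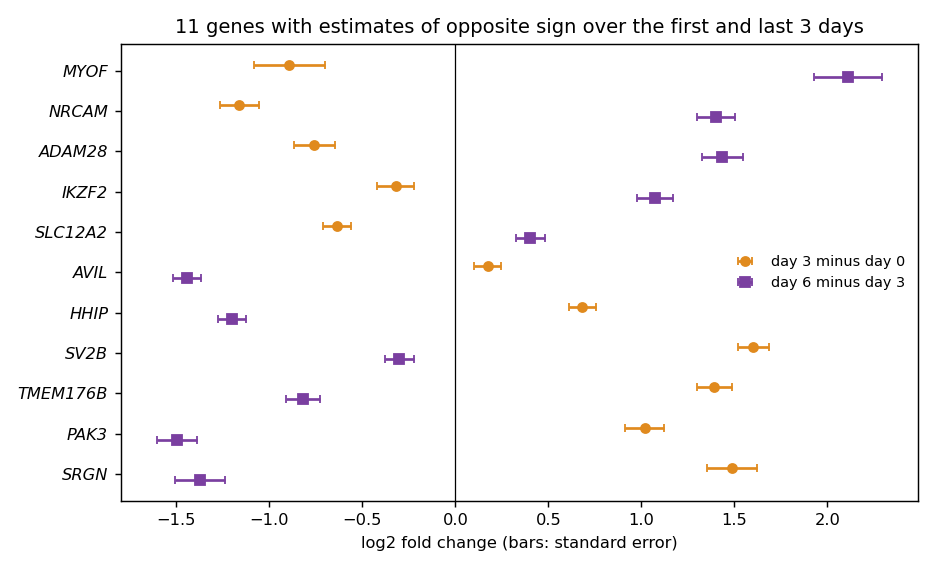
Log2 fold change (horizontal axis) of day 3 over day 0 (orange circles) and of day 6 over day 3 (purple squares), with standard errors as bars, for 11 genes (vertical axis) whose changes differed between both intervals and had opposite signs. The 5 upper genes lie left of 0 over the first 3 days and right of it over the last 3, and the 6 lower genes the reverse.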

How the data were processed

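Poly-A RNA of TYUC-1 cells was sequenced in 9 libraries, per the labels' protocols (TRIzol extraction, TruSeq kit). The deposited table holds estimated counts per gene symbol, unscaled whole numbers, made by the authors with tools that the submitters' processing notes list without a role (bcl2fastq 2.19, kallisto 0.44.0, DESeq2), and whether strand was used is not given in the sources used here. Kallisto splits reads between similar transcripts, so genes with near-identical copies, and overlapping or antisense genes, have uncertain counts. The notes name more than 1 genome build with no role. Coordinates are those of GENCODE release 29 on GRCh38, which 14765 of the tested symbols matched uniquely.

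Counts were rounded, filtered at 10 counts in 3 of the 6 libraries of days 3 and 6, TMM-scaled and tested with the quasi-likelihood test of edgeR 4.0.16 in R 4.3.3. The fit took all 9 libraries, with 1 mean for each day, and the spread was estimated over all of them. Benjamini-Hochberg adjustment ran over all genes tested (threshold 0.05). The fit was tested on simulated counts. Exact Poisson intervals (95%) were used for ratios of pooled counts, and they and the floor of 3 counts cover counting error only. The genes compared and the 49 gene lists were chosen with earlier results of these data known, so list counts are descriptions. Genes were named by rule: 20 genes of Polycomb, squamous, neuroendocrine and cell cycle function, the 12 largest rises and falls at a mean of 5 CPM or more without overlap between days, the 8 largest gains and losses in CPM, the 8 highest rises from under 0.5 CPM, the 4 members of a list that had the lowest p, if called, and 12 genes with opposite changes over both intervals. Some genes that these rules give are not reported here. Alternatives were other scalings, filters, thresholds, DESeq2 1.42.0, limma-voom (limma 3.58.1), the 6 libraries alone, the replicate number as a block and leaving out each library. List counts under these settings were added after the data were seen.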

Additional observations from a re-analysis of the deposited data

Results flagged for a closer look

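Genes called from day 3 to day 6 and in edgeR's test of the difference included 84 rises and 190 falls that reversed sign. The 11 listed here were picked by the lowest p of that test at a mean of 5 CPM or more. In each the change over the last 3 days differed from that over the first 3 days and had the opposite sign. Each value is the log2 change from day 3 to day 6 minus that from day 0 to day 3, and the adjusted p is over all genes tested. The differences were 3.01 for MYOF (adjusted p = 0.000443), 2.56 for NRCAM (3.23e-05), 2.19 for ADAM28 (0.000109), 1.39 for IKZF2, a zinc finger transcription factor gene (0.000744), and 1.04 for SLC12A2, a sodium, potassium and chloride cotransporter gene (0.000942). They were -2.86 for SRGN (4.42e-05), -2.51 for PAK3 (3.12e-05), -2.21 for TMEM176B (3.12e-05), -1.90 for SV2B (3.12e-05), -1.88 for HHIP (3.12e-05) and -1.62 for AVIL (4.42e-05). The first change alone did not pass for AVIL (log2 change 0.17 with SE 0.07, adjusted p = 0.0759). Day 3 stands in both changes with opposite signs.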

How the results depend on the processing

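The number of genes higher on day 6 (1791) was 917 when only genes averaging 5 CPM or more were tested, 985 at a minimum of 2-fold and 1177 at an adjusted p under 0.01. The number lower (740) was 431, 71 and 292 under these settings and 1829 with the 6 libraries of days 3 and 6 alone. The number that differed between both intervals (1170) was 584 at 2-fold and 424 at an adjusted p under 0.01. With each library left out in turn the counts ranged from 1122 to 2543 for higher, from 347 to 2048 for lower and from 431 to 2826 for the difference, the highest of each being without day 0 replicate 2. Leaving out a library of day 3 or 6 leaves fewer samples to estimate the spread. All other scalings, filters and tools kept these counts within 1.5 times.

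Deviations from the day mean of same-numbered libraries of days 3 and 6 correlated at -0.16, -0.117 and 0.137. Deviations within a day depend on each other, so these values cannot settle whether replicate numbers paired the samples. With the replicate number as a block 1662 genes were higher, 664 lower and 1034 differed between intervals.

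Of the 211 genes that the naming rule gave, 196 were called, 155 of these kept the call under every alternative in which they were tested (up to 18), and none changed sign. Of the 15 not called, 6 passed under at least 1 alternative. At these depths a gene under about 0.5 CPM rests on few counts in a library.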
